A study of Drosophila melanogaster with 8 samples.

Results

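This report concerns 10 genes that, by the annotation of the probe sets, only the newer of 2 Affymetrix array types read in S2 cells. S2 is a line from Drosophila melanogaster embryos that resembles haemocytes, the blood cells of insects. The genes were chosen from the values themselves. A gene was taken where its symbol named no probe set of the older type, where its brightest probe set had a mean log2 intensity of at least 6 over the 4 newer arrays, where the DEX and V means differed by at least 0.5 on log2, and where the DEX values did not overlap the V values. Of 11982 genes with a probe set of their own on the newer type, 1158 were read on this type only, 232 of these reached the level of 6, and 10 met every condition. The genes lower on the arrays labelled DEX were CG32170, CG32483, CG34008, CG34116 and Spf30. Those higher were Prp38, CG40228, AsnS, CG31431 and He.

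All cells of the study carried CLKGR, and 1 label calls them stably transfected. CLKGR joins CLK, the activator of circadian transcription, to the domain with which the glucocorticoid receptor binds hormone, and dexamethasone (DEX) releases such a fusion to act in the nucleus. Every group was also given cycloheximide (CHX), which blocks translation, so that a response seen in its presence does not need new protein. On the newer type, 2 arrays were labelled DEX with CHX and 2 were labelled V with CHX. The labels leave the letter V unexplained. The older type had 2 arrays labelled DEX with CHX and 2 labelled EtOH with CHX. The title of the newer type's DEX replicate 2 carries the number 2 while its source label carries the number 1, and the title was followed. Whether arrays of the same group came from different cultures is not labelled, and their spread may be technical.

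The direction of every value below rests on the labels of the newer arrays, and known targets of CLK went against them. On this type vri, which encodes a bZIP repressor of the clock loop, stood at a mean log2 of 12.53 with V and 10.47 with DEX, whereas on the older type it stood at 6.68 with EtOH and 10.72 with DEX. Pdp1, cwo and tim, further targets of CLK, had the same turn of sign. For this reason the arrays are called by their labels throughout, and "lower" or "higher" means on the arrays labelled DEX against those labelled V. GCRMA, with which the arrays were processed, gives values on log2, whereas the intensities were deposited on a linear scale, and the number that was raised to those values is not stated. If it was e and not 2, the deposited folds are too wide: the log2 differences given here would shrink by a factor of 0.693, and the limit of 0.5 would stand for a fold of 1.27 in place of 1.41.

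The 10 genes fall into a few known roles and a larger group of unclear function. He encodes Hemese, a transmembrane glycoprotein of the haemocyte surface. AsnS encodes asparagine synthetase, which makes asparagine from aspartate with glutamine as the nitrogen donor, and whose gene is a known target of the amino acid stress response in mammals. Prp38 and Spf30 belong to the spliceosome, the machine that removes introns. In yeast Prp38 is needed to activate the assembled spliceosome, and human SPF30 is a Tudor domain protein related to SMN that takes part in its assembly. The other 6 genes carry only CG numbers, and no function is given for them here.

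**Figure D1:**
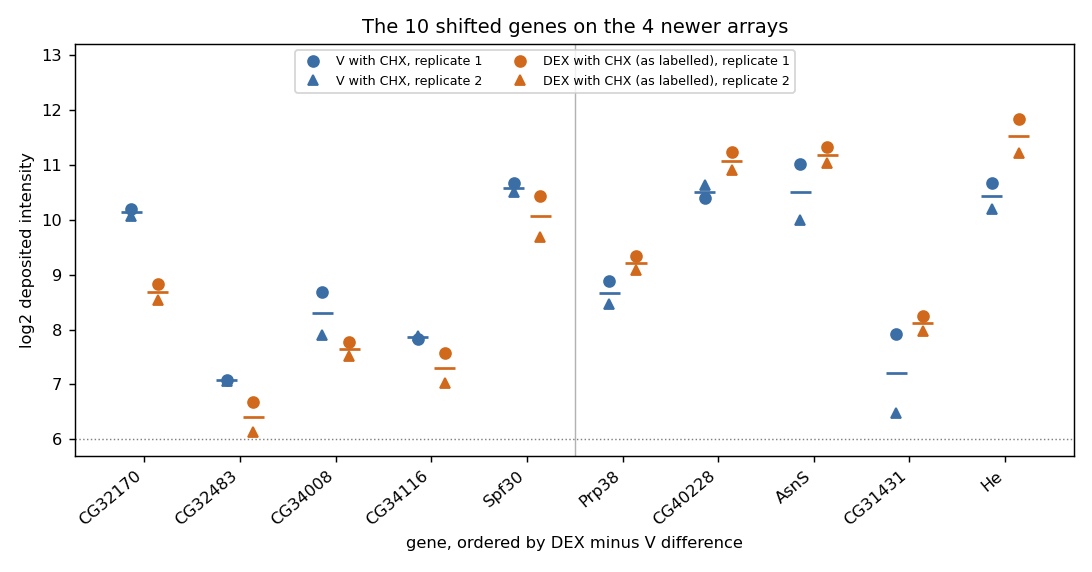
Log2 deposited intensity (y axis) of the 10 genes (x axis) on each of the 4 newer arrays. Blue symbols are V arrays and orange symbols arrays labelled DEX, circles replicate 1 and triangles replicate 2, short lines the means of 2 arrays, and the dotted line the level of 6. CG32170 and He show the widest space between the groups, while the nearest V and DEX values of AsnS almost touch.

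CG32170 had the largest difference of the 10. Its V arrays stood at log2 values of 10.20 and 10.07 and its DEX-labelled arrays at 8.82 and 8.54. The means were 10.14 ± 0.09 (SD, n = 2) and 8.68 ± 0.20, a difference of -1.45 ± 0.15 (SE from the arrays' own spread, with no test, because the difference chose the gene). This is a 2.74-fold lower intensity as deposited, or 2.01-fold if log2 values had been turned back with base e. The nearest arrays of the groups were 1.25 apart, more than the 0.28 between the DEX-labelled arrays and the 0.13 between the V arrays. CG32170 was the only 1 of the 10 genes whose gap exceeded the wider of its 2 within-group ranges.

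He had the largest difference among the genes higher with the DEX label. It stood at 10.68 and 10.19 on the V arrays and at 11.84 and 11.21 on the DEX-labelled arrays. The difference was 1.09 ± 0.40 (SE), a 2.14-fold higher intensity, or 1.69-fold with that base. The groups were 0.53 apart, close to the 0.49 and 0.63 by which the arrays within V and within DEX differed. RNA was taken from whole cultures, so a change in the number of cells that express a gene and a change in RNA per cell cannot be told apart.

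He lies between NimB5 and NimC1 in the RefSeq order of genes, and its annotated span overlaps that of NimB5. Both neighbours belong to the Nimrod family, of which NimC1 encodes a phagocytosis receptor of haemocytes. On the newer arrays NimC1 stood between 8.50 and 8.61 with V and between 8.82 and 9.30 with DEX, without overlap, and the means differed by 0.51 ± 0.22 (SE, limma adjusted p = 0.865) that did not pass. NimB5 stood at 9.04 and 7.99 with V and at 9.25 and 8.81 with DEX, so its groups overlapped although the means differed by 0.51 (limma adjusted p = 0.865). On the older arrays these neighbours were near the floor, NimC1 at a mean log2 of 4.52 with EtOH and 4.51 with DEX, and NimB5 at 3.12 and 3.07.

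The labelled cell type was checked with 10 haemocyte markers, among them He. All 10 reached a mean log2 of 6 on the newer type, whereas 0 of 4 neuron markers, 0 of 4 muscle markers and 0 of 5 fat body markers did. Of 4 germline markers read, aub and bam reached it. Apart from He, 7 haemocyte markers were above and 2 below their V mean, with a median difference of 0.06, beside a median of 0.07 over all genes of the newer type at the level of 6. limma called 0 of these 9, and 0 lay at an unadjusted p under 0.05, beside 3.53% of all probe sets on this type. On the older type, which does not read He, limma also called 0 of the 9, and 2 lay at an unadjusted p under 0.05, beside 5.85% of all probe sets there. These 2 lay in opposite directions without overlap: Col4a1, for a collagen, at -0.66 (limma adjusted p = 0.669) and srp, for a GATA factor of blood cells, at 0.53 (limma adjusted p = 0.738). Their newer differences were 0.06 for Col4a1 and -0.06 for srp, with overlapping arrays. The log2 of the summed intensity of the 10 markers ran from 16.74 to 16.95 on the V arrays and from 16.92 to 17.02 on the DEX-labelled arrays, and these ranges overlapped. This sum of linear intensities rests mainly on the brightest markers, such as Pxn at a mean log2 of 15.74. It says little about dimmer ones such as NimC1 at 8.81. Within the list the ush gene, for a transcriptional cofactor of blood development, was higher by 0.26 without overlap (limma adjusted p = 0.865). The eater gene, for a phagocytosis receptor, stood at a difference of -0.19 with overlapping arrays. Apart from He, groups did not overlap in 2 of the 9 markers on the newer type, beside 32.1% of the genes read on both types at the level of 6. With quantile normalisation repeated the markers other than He split into 5 above and 4 below.

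**Figure D2:**
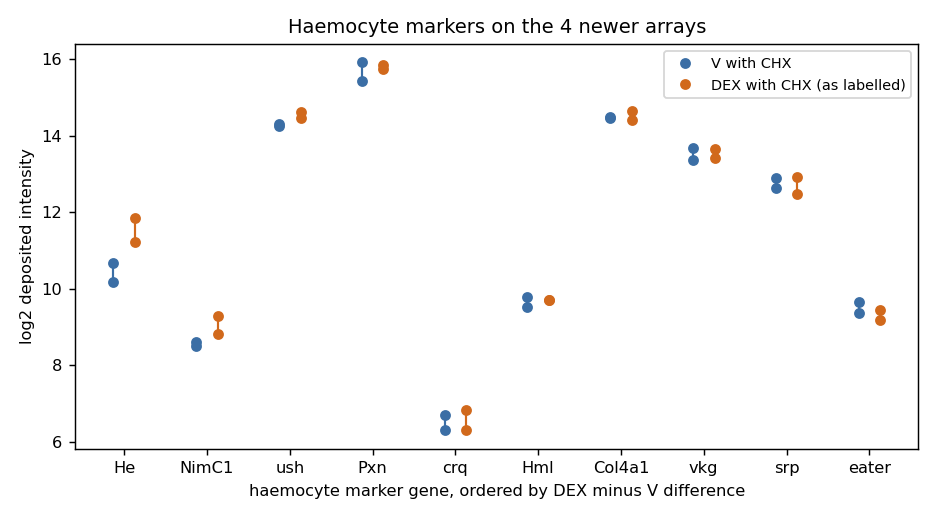
Log2 deposited intensity (y axis) of the 10 haemocyte markers (x axis) on the newer arrays. Each point is 1 array and each line joins the 2 arrays of a group, blue for V and orange for the DEX label. He, NimC1 and ush are the markers whose groups do not overlap.

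AsnS was higher on the arrays labelled DEX by the narrowest margin. It stood at 11.02 and 9.9996 on the V arrays and at 11.32 and 11.03 on the DEX-labelled arrays. The difference of 0.67 ± 0.53 (SE) rested mainly on V replicate 2, because V replicate 1 and DEX replicate 2 were only 0.02 apart. With V replicate 2 left out, the difference was 0.16.

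Other genes of amino acid metabolism and the ATF4 response, a list of 19 drawn up after the values were seen, showed no common direction. On the newer type 16 could be tested beside AsnS, 8 above and 8 below their V mean, with a median of 0.00. limma called 0 of them, and 1 lay at an unadjusted p under 0.05, beside 3.53% of all probe sets. That gene was Gdh, for glutamate dehydrogenase, at means of 11.67 (V) and 11.02 (DEX), or -0.65 ± 0.09 (SE, limma adjusted p = 0.865) without overlap. Gs1, for a glutamine synthetase, stood at means of 7.46 (V) and 8.41 (DEX), or 0.96 ± 0.32 (SE, limma adjusted p = 0.865), also without overlap. crc, the fly gene for ATF4, differed by -0.06 with overlapping arrays. On the older type 7 of 16 were above and 9 below their EtOH mean, limma called 0, and 3 lay at an unadjusted p under 0.05, beside 5.85% of all probe sets. Gs1 there stood at means of 5.28 (EtOH) and 5.58 (DEX), 0.30 apart (limma adjusted p = 0.747). P5cr-2, for a reductase of proline synthesis, was at -0.74 (limma adjusted p = 0.560), and Nmdmc, for a folate enzyme of mitochondria, at 0.72 (limma adjusted p = 0.749). Both genes had the other sign on the newer type, P5cr-2 at 0.28 without overlap and Nmdmc at -0.24 with overlapping arrays.

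The 2 spliceosome genes lay on opposite sides. Prp38 stood at 8.88 and 8.46 on the V arrays and at 9.34 and 9.09 on the DEX-labelled arrays, a difference of 0.54 ± 0.24 (SE). Spf30 stood at 10.67 and 10.50 with V and at 10.44 and 9.68 with the DEX label, a difference of -0.52 ± 0.39 (SE). For Prp38 the groups were 0.21 apart. For Spf30 they were 0.06 apart, and 1 array, DEX replicate 2, carried most of the difference, which was -0.14 without it.

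Among 31 other spliceosome genes measured on the newer type, from a list of 39 also drawn up after the values were seen, 25 were above and 6 below their V mean. Their median difference was 0.13, beside 0.07 over all genes of that type at the level of 6, where 62.1% were above. With quantile normalisation repeated the median was 0.06, with 22 above and 9 below, beside 0.03 and 54.6% over all such genes. limma called 0 of the 31, and 1, Prp8, lay at an unadjusted p under 0.05, beside 3.53% of all probe sets. Prp8 was at a difference of -0.34 (limma adjusted p = 0.865). Sf3b2, for a subunit of the U2 particle, was at -0.55 without overlap (limma adjusted p = 0.865), the only 1 of the 31 past 0.5 without overlap. hfp, a splicing regulator, was at 0.39 (limma adjusted p = 0.865). On the older type 18 of 29 were above and 11 below their EtOH mean, with a median of 0.09. limma called 0 of the 29, and 5 lay at an unadjusted p under 0.05, as did 600 of all 10250 probe sets (5.85%). Sf3a1, for another subunit of the U2 particle, differed there by 0.98 ± 0.24 (SE, limma adjusted p = 0.390) and Tango4 by 0.89 ± 0.18 (SE, limma adjusted p = 0.258). On the newer type these genes were at 0.34 each, without overlap. The others of the 5 were Smn at -0.48 (limma adjusted p = 0.716), Sf3b3 at 0.45 (0.820) and U2af50 at 0.49 (0.802). Their newer differences were 0.19 for Smn, of the other sign and with overlapping arrays, 0.14 for Sf3b3 without overlap and 0.06 for U2af50 with overlapping arrays. The balance on the older type turned with the scaling: with quantile normalisation repeated, 14 genes were above and 15 below, with a median of -0.01.

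Prp38 and the genes on either side of it had higher means on the arrays labelled DEX. These are shrb, for the Snf7 subunit of the ESCRT-III membrane complex, and CG30344, next before and next after it in gene order. On the older arrays shrb stood at 9.98 and 10.04 on the EtOH arrays and at 10.70 and 10.48 on the DEX arrays, which differ by 0.58 ± 0.19 (SE, limma adjusted p = 0.669). CG30344 stood at 9.47 and 9.52 on the EtOH arrays and at 10.78 and 9.71 on the DEX arrays, which differ by 0.75 ± 0.36 (SE, limma adjusted p = 0.947). Neither passed. On the newer type shrb differed by 0.35 ± 0.11 (SE, limma adjusted p = 0.865) and CG30344 by 0.44 ± 0.11 (SE, limma adjusted p = 0.865). In both genes the DEX and control arrays did not overlap on either type. Such a lack of overlap was common among the neighbours of the 10 genes. It held for 8 of the 15 tested on the older type and for 9 of all 17 on the newer. Whether the types agree rests on the labels of the newer arrays.

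Of the genes with a CG number, CG31431 had the largest difference among those higher with the DEX label. Its values were 7.92 and 6.49 with V and 8.26 and 7.98 with the DEX label, a difference of 0.91 ± 0.73 (SE). The V arrays differed by 1.43 from each other, more than the groups did, and the nearest arrays of the groups were 0.06 apart. Left out in turn, V replicate 1 and V replicate 2 gave differences of 1.63 and 0.20.

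CG40228 had closer replicates. It stood at 10.40 and 10.62 with V and at 11.23 and 10.91 with the DEX label, a difference of 0.56 ± 0.20 (SE). The groups were 0.29 apart, about as far as the arrays within V (0.23) and within DEX (0.32).

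CG32483 was the dimmest of the 10. Its V arrays almost coincided, at 7.08 and 7.07, and its DEX-labelled arrays stood at 6.69 and 6.13, a difference of -0.67 ± 0.28 (SE). CG34116 had the same shape, with V at 7.83 and 7.89 and the DEX label at 7.58 and 7.03, a difference of -0.56 ± 0.28 (SE). In both genes the groups were farther apart than the V arrays, by gaps of 0.38 and 0.25, and the spread lay in the DEX-labelled arrays.

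CG34008 was read by a probe set whose identifier, 1624813_s_at, marks it as able to bind more than 1 transcript, so its value is uncertain. It stood at 8.69 and 7.90 with V and at 7.78 and 7.52 with the DEX label, a difference of -0.65 ± 0.41 (SE). Here the spread lay in the V arrays, and the difference was -0.26 without V replicate 1. Its annotated span overlaps Srp14, for a protein of the signal recognition particle, which was higher with DEX on both types without overlap, by 0.23 (limma adjusted p = 0.865) on the newer and by 0.42 (limma adjusted p = 0.877) on the older. The newer groups of Srp14 almost touched, with V at 9.63 and 9.21 and both DEX-labelled arrays at 9.65. For Srp14 too, whether the types agree rests on the labels of the newer arrays.

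The other 9 genes were read by plain _at probe sets. CG32170 was read by 1630345_at, CG32483 by 1628500_at, CG34116 by 1628330_at, Spf30 by 1630820_at and Prp38 by 1638997_at. The probe set was 1634593_at for CG40228, 1633765_at for AsnS, 1627176_at for CG31431 and 1640654_at for He. Each of the 10 genes had only 1 probe set that named it, so no second probe set could be set beside the first. All 10 had a current RefSeq entry, and 0 were found on the older type through their gene ID or a synonym. Whether any of the 1239 older probe sets without a symbol reads 1 of them was not examined.

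**Figure D3:**
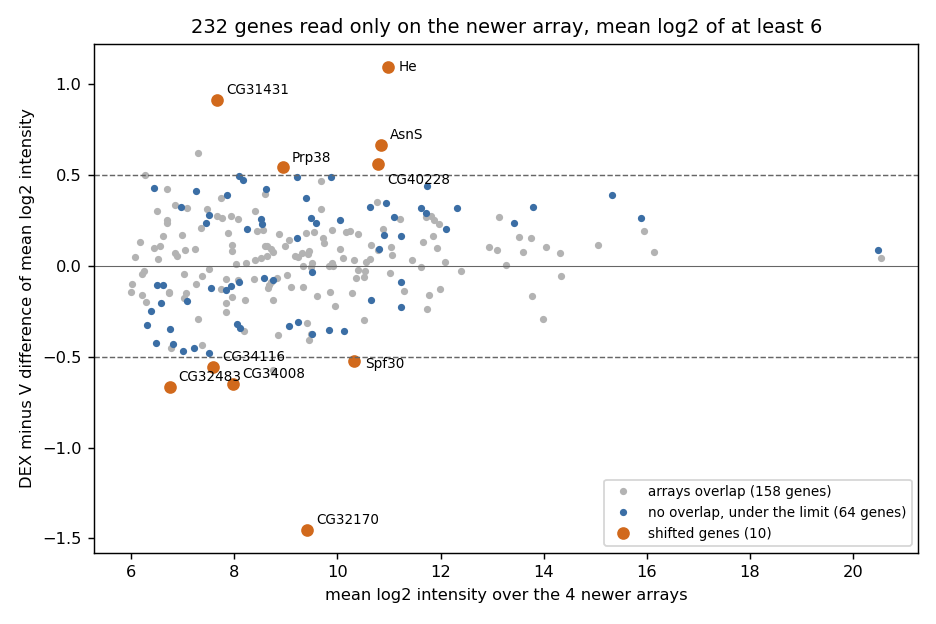
DEX minus V difference of mean log2 intensity (y axis) against mean log2 intensity (x axis) for the 232 genes that only the newer type read at a level of 6 or more. Grey points are 158 genes whose arrays overlap, blue points 64 genes without overlap under the limit of 0.5 (dashed lines), and orange points the 10 chosen genes. CG32170 lies far below all others, and most of the 10 lie close to the limit.

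The 10 genes were 4.31% of the 232 genes read only on the newer type at this level, 2.16% in each direction. By the same size and overlap, 307 of 4846 genes read on both types passed on the newer arrays, or 6.34%, with 175 higher (3.61%) and 132 lower (2.72%). On the older type the same conditions held for 313 of 3413 genes, or 9.17%. limma called 0 of 12436 probe sets on the newer type (0%), and 439 lay at an unadjusted p under 0.05.

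A difference of 0.5 was within reach of replicate spread. Among the 232 genes, the V arrays differed from each other by at least 0.5 in 65 genes (28.0%) and the DEX-labelled arrays in 35 (15.1%). The DEX and V means differed by as much in 13, but means of 2 arrays vary less than single arrays, so these counts are not on an equal footing. The median absolute difference was 0.26 between V arrays, 0.19 between DEX-labelled arrays and, with the same limit on the comparison, 0.17 between the group means. No overlap between groups was itself common, in 74 of the 232 genes (31.9%). Among the 10 genes, the groups were under 0.2 apart in 4, namely AsnS, CG31431, Spf30 and CG34008.

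DEX replicate 1 was above DEX replicate 2 in all 10 genes, those lower and those higher with the DEX label alike. V replicate 1 was above V replicate 2 in 8 of them. Over the 232 genes the shares were 59.1% and 69.0%. For the genes lower with DEX, replicate 2 was thus the DEX-labelled array farther from V, and for the genes higher with DEX it was the nearer.

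The limit of 0.5 cut through a continuous range. Just inside it were Spf30 at -0.52, Prp38 at 0.54 and CG34116 at -0.56. Just outside it, without overlap, were CG32069, CG32163 and CG32625 at 0.49 each, and CG32625, at 9.65 and 9.62 with V and 10.18 and 10.08 with the DEX label, had replicates at most 0.10 apart. CG32147 (0.62), CG30001 (-0.57) and PIG-Q (0.50) had differences past the limit and overlapping arrays.

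A further 8 genes met the size and overlap conditions but lay under the level of 6. Nearest to it were CG33469 at a mean log2 of 5.96 with a difference of -0.53, CG33474 at 5.86 and CG30466 at 5.40 with a difference of 0.94. CG33474 had the largest difference of all 1158 genes that only the newer type read. Its arrays stood at 4.99 and 4.95 with V and at 6.79 and 6.70 with the DEX label, a difference of 1.78 ± 0.05 (SE), with groups 1.71 apart.

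**Figure D4:**
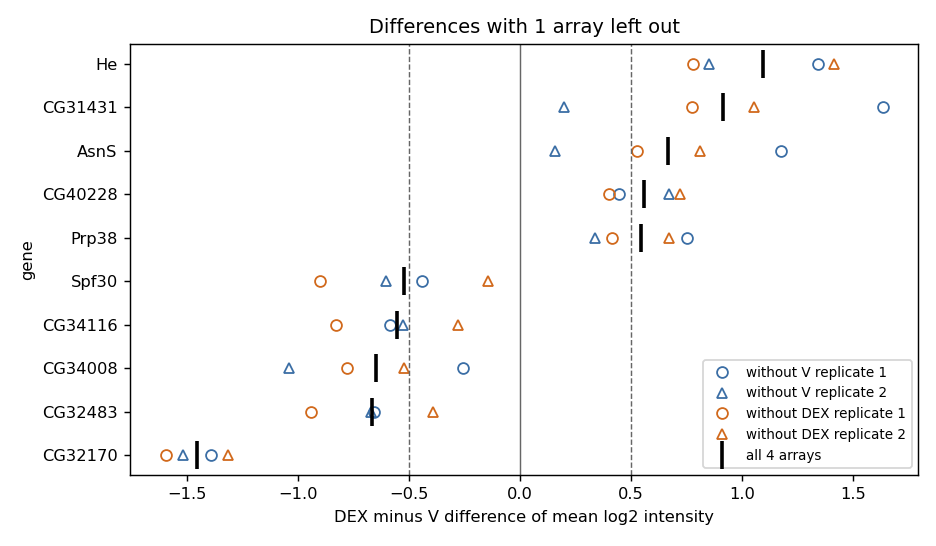
DEX minus V difference of mean log2 intensity (x axis) of the 10 genes (y axis) with all 4 arrays (black bars) and with each array left out in turn (open symbols). Dashed lines mark the limit of 0.5. The choice of genes without overlap fixes the side of 0 for every symbol; CG32170 and He stay past the limit in all cases.

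With 1 of the 4 arrays left out the sign of a difference cannot turn, since the genes were chosen for groups that do not overlap, but its size can change. Only CG32170, between -1.59 and -1.31, and He, between 0.78 and 1.41, still met all conditions in each of the 4 cases. The value moved most in CG31431, between 0.20 and 1.63, and in AsnS, between 0.16 and 1.18. Spf30 ranged from -0.90 to -0.14, CG34008 from -1.04 to -0.26, CG34116 from -0.83 to -0.28 and CG32483 from -0.94 to -0.39. Prp38 ranged from 0.34 to 0.75 and CG40228 from 0.40 to 0.72, and the range of CG32170 was the narrowest of the 10.

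The genes that only the newer type read were for the most part dim. Of the 1158, 20.0% reached the level of 6 and 45.9% lay under 4, beside 44.8% and 26.5% of the 10824 genes read on both types. CG numbers made up 63.5% of the former and 41.3% of the latter. By symbol, 84 of the 1158 were noncoding RNA genes and 42 odorant, gustatory or ionotropic receptors, of which 8 and 1 reached the level of 6 and 0 were among the 10. Of 5 mitochondrial ribosomal protein genes all reached it, with a median difference of 0.20, and 0 were among the 10. No histone or cytochrome P450 gene was found among the 1158 by symbol.

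Since the older arrays entered no part of the choice, the nearest genes on each side of the 10 that the older type could read were tested there. These were 17 genes, 12 of them next in order and 4 overlapping the chosen gene. Of these, 15 reached the mean log2 of 4 needed for the test, a level that genes near the floor also reach. limma called 0 of the 15, where it called 27 of 10250 probe sets (0.263%) on that type. At so low a share, 0 among 15 tells little about these genes. In the same fit 1, shrb, lay at an unadjusted p under 0.05, beside 5.85% of all probe sets. The 27 depended on the processing, with 0 called after median centring, 4 after repeated quantile normalisation and 34 with the replicate number in the fit. The count was 12 without the intensity trend, 13 at a mean log2 of at least 6 and 73 with no filter on low values. It also moved when 1 array was left out. The differences split into 7 above and 8 below the EtOH mean, with a median of -0.01, as over all probe sets tested (-0.01). This split followed brightness: the 7 above had a mean log2 of at least 6, and the 8 below lay under it. Over all genes of the older type at the level of 6, the median was 0.05 and 59.4% were above. After shrb, the smallest p-values were those of Srp14, CG30344, CG6656 and alpha-Cat, none of which passed. alpha-Cat, for the adherens junction protein alpha-catenin, is the nearest such gene to both Spf30 and CG40228, at 5 and 41 places in the gene order, and differed by 0.47 ± 0.27 (SE, limma adjusted p = 1.00). CG6656, beside CG31431, stood at 6.20 and 5.18 on the EtOH arrays and at 5.06 and 5.07 on the DEX arrays, or -0.63 ± 0.31 (SE, limma adjusted p = 0.976).

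Around CG32170 the neighbours were flat. Lmpt, whose annotated span overlaps CG32170, differed by -0.08 (limma adjusted p = 1.00) on the older type and by 0.00 on the newer, where its arrays lay between 4.94 and 4.96. The older groups of Lmpt did not overlap, at 5.79 and 5.78 with EtOH and 5.69 and 5.72 with DEX. CG13028, on the other side, differed by -0.01 on each type at levels under 5. The neighbours of AsnS, Ac78C and CG42337, differed on the older type by -0.02 and -0.01 at levels under 5.

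**Figure D5:**
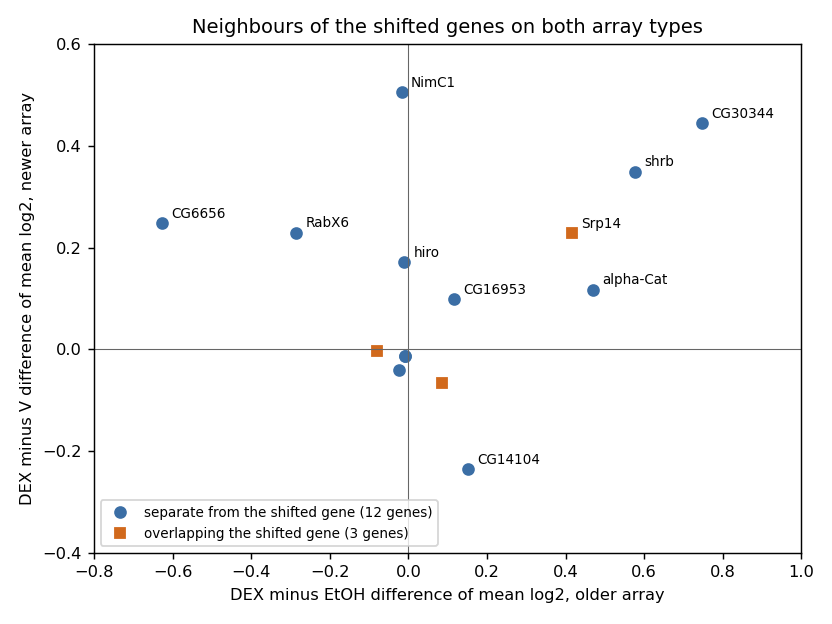
DEX minus V difference on the newer arrays (y axis) against DEX minus EtOH difference on the older arrays (x axis), both of mean log2 intensity, for the 15 neighbouring genes bright enough to test on the older type. Orange squares overlap the chosen gene and blue circles do not. CG30344 and shrb, on either side of Prp38, lie highest on both axes together, and CG6656 has opposite signs on the 2 types. The sign on the y axis rests on the labels of the newer arrays.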

How the data were processed

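RNA was read on 8 1-colour arrays, 4 of each type. The deposited intensities were made with GCRMA, per the submitters' processing notes (version and log base not given in the sources used here), and the authors' values lie on a linear scale. Here log2 was taken with no pseudocount. Names came from the platform annotation, which gives 13647 probe sets 1 symbol, 402 several and 4903 none on the newer type and 12443, 327 and 1239 on the older, and through RefSeq (Release 6 plus ISO1 MT), used only for names and gene order. The types were fitted separately in R 4.3.3 with limma 3.58.1 (intensity trend, two-sided, Benjamini-Hochberg adjustment, threshold 0.05, mean log2 of at least 4, control probe sets left out, 2 residual degrees of freedom), after a test on simulated data. No level was set across types. The number of arrays limits the precision. No columns held identical values.

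The genes and lists were chosen with earlier results of these data known. All 10 genes were named. Of their neighbours, the genes called or, with under 5 called, the 5 with the smallest p were named, along with some others to describe a neighbourhood. Genes named from lists were chosen after their values were seen. No promoter or protein sequences were used here.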

Additional observations from a re-analysis of the deposited data

Results flagged for a closer look

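In each gene here the DEX arrays lay on 1 side of the control arrays on the older type and on the other side on the newer, and the difference between types was not tested. The newer minus the older DEX difference of mean log2 was 0.88 for CG6656, the neighbour of CG31431, which stood between 5.06 and 6.20 on the older type. It was -6.11 for vri, -5.81 for cwo, -5.15 for tim and -4.48 for Pdp1. The DEX-labelled newer arrays of tim lay at 3.76, near the floor, so its size is not resolved.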

How the results depend on the processing

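The number of genes meeting the conditions was 10. It was 23 at a limit of 0.4, 2 at a limit of 1 (CG32170 and He) and 3 on a natural log scale with the same limit (these and CG31431). Leaving out 1 array gave between 24 and 48 genes. With all 4 arrays only 13 of the 232 genes differed by at least 0.5, overlapping or not. More genes thus passed the size limit once 1 group rested on a single array, besides the easier lack of overlap. Median centring gave 13, with 8 higher and 5 lower, among them all 10. Repeated quantile normalisation gave 10, with 4 higher and 6 lower, CG30001 in place of Prp38. A floor of 5 or 7, the mean over probe sets, plain _at probe sets and matching by current gene gave between 9 and 15. The 10 differences kept their sign with median centring and with repeated quantile normalisation. Leaving out an array cannot turn a sign among genes chosen without overlap, and each gene had only 1 probe set to average. On the newer type limma called 0 probe sets in each of the 10 alternatives run, the replicate block among them (0 called, 379 at an unadjusted p under 0.05). Arrays of the same replicate number shared little there: their deviations correlated at -0.02 across probe sets (0.26 on the older type). Whether they were prepared as pairs is not labelled. On the older type 0 neighbours were called, also 0 with the replicate block, where 2 in place of 1 lay at an unadjusted limma p under 0.05. Leaving out 1 array gave between 0 and 3, the 3 being CG30344, CG6656 and alpha-Cat without DEX replicate 2, a fit that called 455 probe sets in all.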
